A study of Mus musculus with 8 samples.

Results

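The DNA replication and G1/S machinery is taken here as 36 named genes of mouse embryonic stem cells, from the proteins that mark replication origins to the enzymes that supply nucleotides and the transcription factor E2f1. Members were chosen by name as rows of the deposited gene table that had a value in all 8 libraries and a mean of at least 1, and all 36 given genes met this among the 13959 genes tested. RNA came from 2 transgenic lines of E14 embryonic stem cells (strain 129/Ola). The GSK3α line lacks its own gene for glycogen synthase kinase 3α and carries a transgene for the mutant GSK3α-L195G. The GSK3β line lacks its own gene for the paralog GSK3β and carries one for GSK3β-L132G. Such a change enlarges the ATP pocket of a kinase so that the bulky analog 3MB-PP1 can block it. Both lines were starved of serum in N2B27 medium for 6 h. Exposure to 3MB-PP1 at 5 µM then lasted 2 h in the treated groups, and each of the 4 groups (line by treatment) has 2 libraries. All 4 groups carry a knockout together with a transgene, and the labels state neither the promoter of the transgenes nor a vehicle for untreated cells. No line without a mutant kinase is among the 8 libraries. Inhibition of that kinase and other effects of 3MB-PP1 or its solvent therefore cannot be told apart. Each paralog is represented by 1 line, so a difference between paralogs and one between lines cannot be told apart. The labels do not call the libraries of a group separate cultures. What the p-values measure is then only the spread of these libraries, which may be technical.

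Before S phase the origin recognition complex, with Cdc6 and Cdt1, loads the ring-shaped MCM helicase on DNA. At the G1/S transition cyclin-dependent kinases and Dbf4-dependent kinase turn the loaded ring into an active helicase by adding Cdc45 and the GINS complex, after which primase, the polymerases, the sliding clamp and its loader copy the strands. Many of these genes are transcribed in waves by E2F factors, and embryonic stem cells spend a large share of their short cycle in S phase. GSK3 kinases hold back Wnt/β-catenin signalling and also phosphorylate cell cycle regulators such as Myc and cyclin D1.

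Promoter windows from 250 bases before to 50 bases after the transcription start (RefSeq, GRCm38.p6) were matched by symbol for 29 of the 36 members. Mcm4, Gins1, Gins2, Gins4, Prim2, Pole and Rfc2 were the 7 without a match. The windows were searched on both strands for 4 spellings of the site bound by E2F factors, TTTCCCGC, TTTGGCGC, TTTCGCGC and TTTGCCGC, and for the CCAAT box, CCAAT. The CCAAT box is bound by NF-Y and is common in cell cycle promoters. E2F letters were found in 12 of the 34 windows of members (35.3%), in 3.95% of 12948 windows of tested genes and in 2.26% of all 32851 windows. CCAAT was found in 61.8% of member windows, in 38.2% of windows of tested genes and in 37.4% of all windows. The cell cycle homology region letters, TTTGAA, were in 11.8%, 11.9% and 17.9%. These spellings can overlap one another, a match is a description of letters and not a bound site, and several genes have more than 1 window. For the 29 matched members 1 window each was taken, the one starting nearest the principal GENCODE M21 transcript. In these windows 11 members had E2F letters (17 matches, 10 of them within 100 bases of the start) and 19 had a CCAAT box. The RefSeq and GENCODE starts lay more than 100 bases apart for Mcm7 (539), E2f1 (466), Mcm10 (447), Fen1 (224), Lig1 (138), Pcna (134) and Gins3 (106). The windows of these genes may miss the main promoter.

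The 250 bases before the start are shown for 5 members, 5′ to 3′ on the strand of the gene, with E2F and CCAAT letters of either strand in capitals. Rrm1, Rrm2 and Pola1 fell with the inhibitor in the GSK3β line, and Mcm5 and Mcm6 hold overlapping E2F letters but passed no test of the inhibitor.
Rrm1 (chr7:102441445-102441694, plus strand): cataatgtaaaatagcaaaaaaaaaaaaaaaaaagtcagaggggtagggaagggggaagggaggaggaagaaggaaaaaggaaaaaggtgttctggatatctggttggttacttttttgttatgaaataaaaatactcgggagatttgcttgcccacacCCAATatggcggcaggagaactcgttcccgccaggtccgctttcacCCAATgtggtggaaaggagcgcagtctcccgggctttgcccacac
Rrm2 (chr12:24708004-24708253, plus strand): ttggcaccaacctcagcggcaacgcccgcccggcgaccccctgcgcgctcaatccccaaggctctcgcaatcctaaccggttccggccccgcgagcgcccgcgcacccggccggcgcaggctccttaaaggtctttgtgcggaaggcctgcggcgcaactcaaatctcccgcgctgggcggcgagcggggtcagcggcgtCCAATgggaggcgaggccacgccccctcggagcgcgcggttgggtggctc
Pola1 (chrX:93632156-93632405, minus strand): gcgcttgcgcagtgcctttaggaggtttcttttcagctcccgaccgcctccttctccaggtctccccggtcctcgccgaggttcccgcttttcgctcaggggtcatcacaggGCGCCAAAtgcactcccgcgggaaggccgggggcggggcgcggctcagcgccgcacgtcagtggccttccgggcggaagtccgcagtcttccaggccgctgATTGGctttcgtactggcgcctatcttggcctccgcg
Mcm5 (chr8:75109259-75109508, plus strand): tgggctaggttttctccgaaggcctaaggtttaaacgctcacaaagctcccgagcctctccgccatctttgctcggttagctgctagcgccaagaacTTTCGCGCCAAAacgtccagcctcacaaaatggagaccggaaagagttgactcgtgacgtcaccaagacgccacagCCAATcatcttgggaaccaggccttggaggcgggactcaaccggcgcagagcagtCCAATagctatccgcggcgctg
Mcm6 (chr1:128359706-128359955, minus strand): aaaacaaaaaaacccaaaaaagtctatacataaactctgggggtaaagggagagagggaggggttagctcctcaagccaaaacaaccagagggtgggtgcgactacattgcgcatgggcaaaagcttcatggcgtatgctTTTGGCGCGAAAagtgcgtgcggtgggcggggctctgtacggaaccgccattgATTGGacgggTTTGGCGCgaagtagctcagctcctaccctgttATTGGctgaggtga

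In these letters Rrm1 had CCAAT at -91 and -45 from the start, Rrm2 at -50, and neither had E2F letters in its window. Pola1 had E2F letters from -138 to -131 and a CCAAT box on the opposite strand at -37. Mcm5 had an overlapping pair of E2F matches from -153 to -142, and Mcm6 had such a pair from -110 to -99 and a further match from -47 to -40. Pcna and Prim1, which also fell in the GSK3β line, had CCAAT at -87 and -9 and no E2F letters in the window. Among the 5 members with a window that fell with the inhibitor, 1 had E2F letters and 5 had CCAAT, beside 11 and 19 of all 29 matched members. With 5 genes these counts set neither motif apart, and a relation of the letters to the response was not tested. The letters that are not in a window say nothing of whether a factor acts on the gene.

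**Figure D1:**
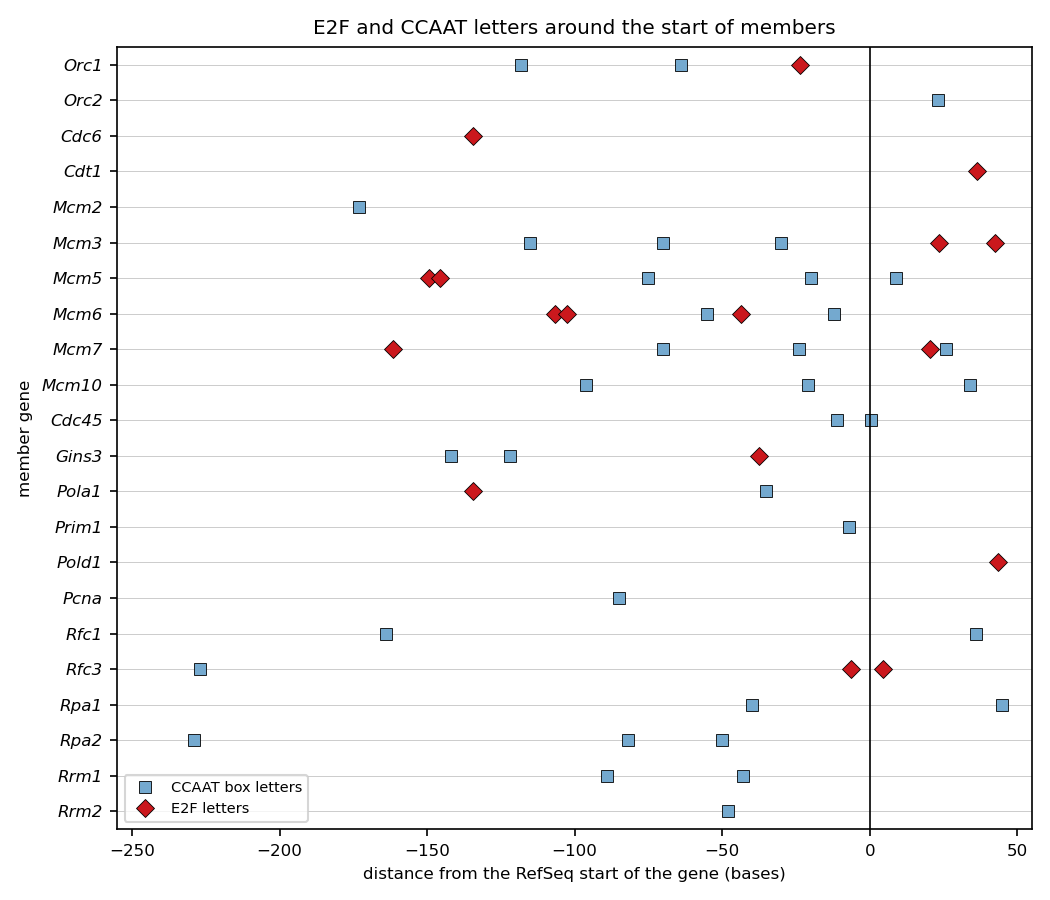
Positions of E2F and CCAAT letters (x axis, bases from the RefSeq transcription start, 0 marking the start) in the chosen promoter window of each member that has a match (y axis). The 17 E2F matches lie in 11 members and 10 of them lie within 100 bases of the start.

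The libraries held an estimated 21.5 to 32.4 M reads, with 25.98 and 26.4 M in the GSK3α line with inhibitor against 21.5 and 22.7 M untreated, and 31.2 and 32.4 M in the GSK3β line with inhibitor against 23.8 and 28.9 M untreated. Depth therefore moved with treatment in both lines, and its part in the results was not tested. The lowest member, Gins3, rested on at least 562 estimated reads in every library. Each line had more RNA of the paralog of its transgene: untreated, Gsk3a was 155 and 160 in the GSK3α line against 77.9 and 76.2 in the GSK3β line, and Gsk3b was 58.2 and 54.7 against 235 and 256. The 8 markers of embryonic stem cells (Pou5f1, Sox2, Nanog and others) summed to between 6085 and 6311 in all libraries, but single markers differed: 3 rose and 1 fell with inhibitor in the GSK3β line (log2 -0.24 to 0.59 over the 8, limma), 0 passed in the GSK3α line, and 3 were higher and 4 lower in the untreated GSK3β line. Summed markers of fibroblasts (Col3a1, Dcn and Lum listed with no value) were low, between 12.7 and 12.9 in the untreated GSK3α line and between 15.3 and 17.6 in the untreated GSK3β line. Those of primitive endoderm (Foxa2 with no value) lay between 13.5 and 15.03 in all libraries. Between untreated lines 1 of 4 tested fibroblast markers was higher in the GSK3β line (log2 0.54) and 1 of 4 primitive endoderm markers was lower (-0.33). Sums of other states also differed with the groups. The trophoblast list (Elf5 with no value) summed to between 56.2 and 63.9 in the untreated GSK3β line and between 84.0 and 87.0 with inhibitor. The neural list (Neurog1 and Neurog2 with no value) summed to between 164 and 175 and then between 225 and 233. The 2-cell-like list summed to between 146 and 159 and then between 122 and 130. Single genes of a list did not all follow its sum. Of 6 tested genes in each list, 1 trophoblast gene rose and 0 fell, 2 neural genes rose and 1 fell, and 0 2-cell-like genes rose and 4 fell. The median log2 response of the neural genes was -0.09, with 3 above and 3 below 0. In the GSK3α line the neural list summed to between 153 and 160 untreated and between 168 and 170 with inhibitor. These 2 ranges did not overlap, and the shift had the same direction as in the GSK3β line. Of the 6 tested neural genes 0 passed in the GSK3α line. Over untreated and inhibitor libraries of that line the trophoblast list lay between 73.5 and 75.6 and the 2-cell-like list between 131 and 139. The part of these 3 lists in the results was not tested.

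The comparison of 3MB-PP1 with no treatment in the GSK3β line asks which members respond to the compound within 2 h. Ribonucleotide reductase, the enzyme that makes deoxynucleotides, fell in both of its S-phase subunits, Rrm1 by 0.17 and Rrm2 by 0.15 on the log2 scale. Polymerase α-primase fell in its catalytic subunit Pola1 and in the primase Prim1, and the sliding clamp Pcna and the GINS subunit Gins2 fell as well. In percent these 6 falls lie between -7.05 and -11.3, and no member rose. Of the 36 members 6 passed downwards (16.7%), where 7.44% of all tested genes did, and 0 passed upwards, where 7.49% did. Without adjustment p was under 0.05 for 16 members, all lower, beside 1924 higher and 2053 lower of the 13959 tested genes. Limma without a trend called 0 members (adjusted p 0.0515 to 0.163 for the 6). With 29 of 36 members below 0 the median log2 difference was -0.06, beside 51.9% of all tested genes below 0 and their median of -0.01. With either other scaling 27 were below 0. In 19 members both inhibitor libraries lay below both untreated libraries and in 2 above, shares that were 30% and 27.3% over all tested genes. In bulk libraries, fewer cells in S phase and less RNA per cell cannot be told apart.

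The same comparison in the GSK3α line asks which members respond to the compound there. Here E2f1, the transcription factor that drives many genes of G1/S, rose by 0.26 on the log2 scale, and the other 35 members did not pass, with log2 differences between -0.03 and 0.12. That is 1 member higher, where 0.265% of all tested genes passed upwards, and 0 lower, where 0.616% passed downwards. By unadjusted p under 0.05 there were 2 higher (E2f1 and Pola2) and 0 lower. Of the 13959 tested genes 855 were higher and 793 lower by that rule, so the 2 are near the share of all genes. Limma without a trend called 0 members in either direction. The median was 0.01, beside 0.01 for all tested genes (both rounded to 2 decimals), with 24 members above 0 as deposited and 19 with either other scaling, beside 53.6% of all tested genes as deposited. Both inhibitor libraries lay above both untreated ones in 10 members and below in 4, with shares over all tested genes of 23% and 19%.

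The difference between the responses of the lines was itself tested, as the response in the GSK3β line minus that in the GSK3α line. It passed for Gins2 (-0.20), Pola2 (-0.22), Rrm1 (-0.19) and E2f1 (-0.27), all lower in the GSK3β line. These 4 of 36 (11.1%) stand beside 2.9% of all tested genes that passed downwards, and 0 members passed upwards beside 3.62%. For 11 members p was under 0.05 without adjustment, all lower, beside 1399 higher and 1529 lower of the 13959 tested genes. Limma without a trend called 0 (adjusted p 0.161 to 0.231 for the 4). With 27 of 36 below 0 (54% of all tested genes were) the median difference was -0.07, beside -0.01 for all tested genes. The other 32 members are not shown to respond differently in the lines. Among them Rfc3 lay farthest from 0 (-0.23, 95% interval -0.38 to -0.08, limma adjusted p = 0.0676), and it passed without untreated GSK3α replicate 2 (0.0137) or untreated GSK3β replicate 2 (0.0419). Without the latter library Pcna (0.0185), Rpa2 (0.0298) and Cdc45 (0.0463) passed as well. This difference and the GSK3β response share the GSK3β libraries, and the comparison of untreated lines shares the untreated ones, so the values are set side by side and no relation between them is drawn.

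The comparison of the untreated lines gives the level from which each response started. The untreated GSK3β line had more RNA of Gins2 (0.56 on the log2 scale), Pola1 (0.47), Rfc3 (0.33), Pola2 (0.29), Rrm1 (0.26) and Gins4 (0.26), and less of Orc1 (-0.21), Rpa2 (-0.17) and Mcm10 (-0.15). Of the 36 members 15 were higher (41.7%), where 22.3% of all tested genes were, and 5 were lower (13.9%), where 25.9% were. With 26 members above 0 (46.7% of all tested genes were), or 27 with either other scaling, the median was 0.08, beside -0.02 over all tested genes. With either other scaling 19 members were higher, the additional ones being Mcm4, Mcm7, Rfc2 and Lig1 (limma adjusted p 0.0145 to 0.0407). These 4 did not pass as deposited. Without untreated GSK3α replicate 2 Mcm4 (0.0167) and Lig1 (0.0399) passed, and without untreated GSK3β replicate 2 Rfc2 (0.0118), Lig1 (0.0407), Cdc45 (0.0356) and, lower, Mcm5 (0.0375) did. Rfc2 also passed without either GSK3α inhibitor library (0.0456 and 0.0453). Libraries of the lines did not overlap for 23 members higher and 7 lower, with shares of 33.5% and 38.7% over all tested genes. Summed over the 36 members the untreated values were 6633 and 6746 for the GSK3α line against 6962.5 and 6978.6 for the GSK3β line, and the values lay between 6709 and 6731 in the 4 inhibitor libraries. Both untreated GSK3β libraries thus lay above the other 6, while the inhibitor libraries of the 2 lines overlapped; large members such as the MCM genes weigh most in such a sum, and it was not tested.

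**Figure D2:**
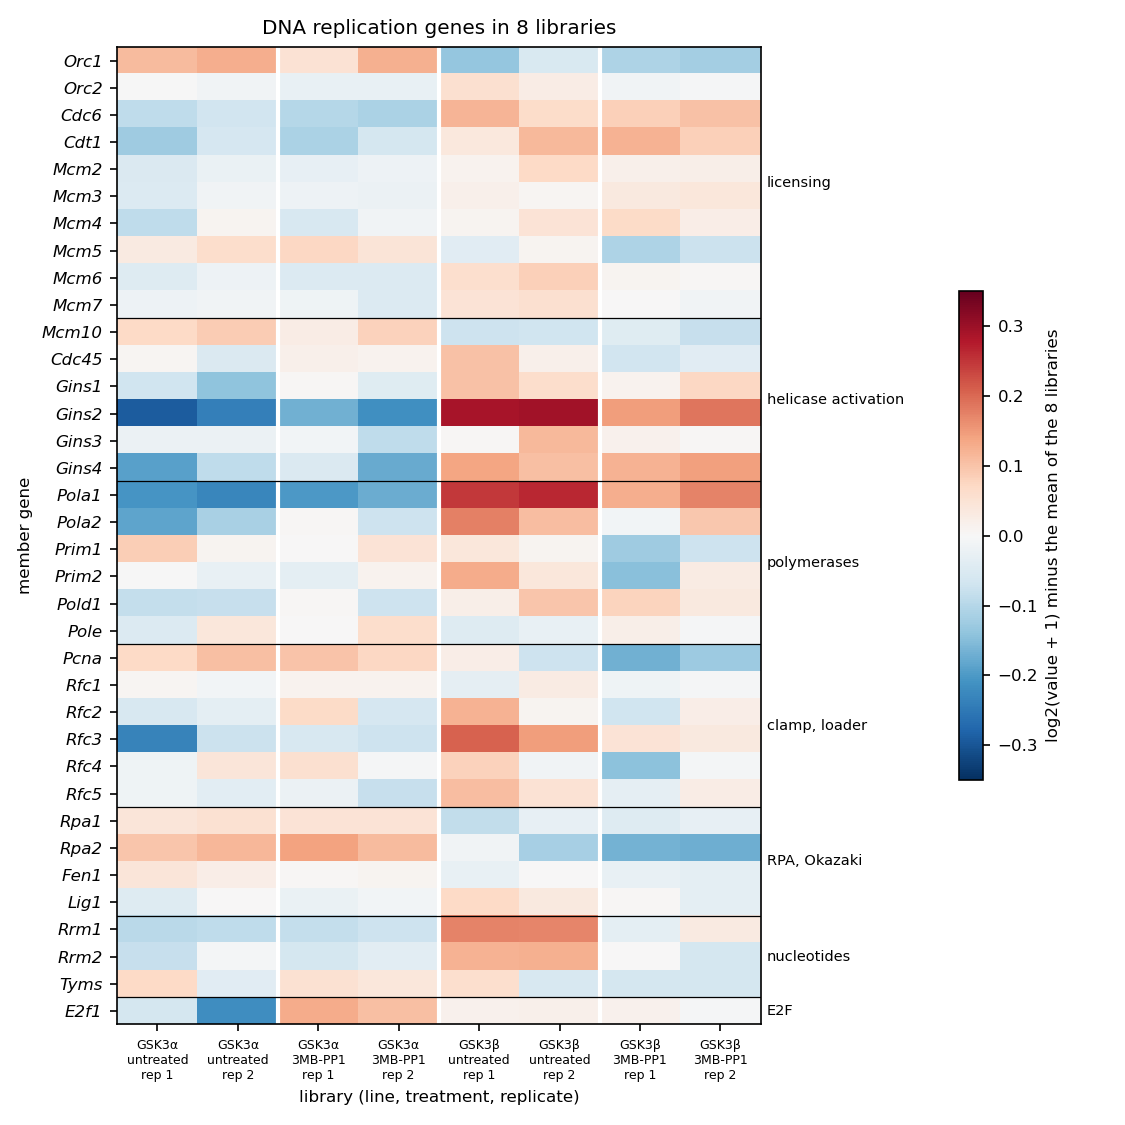
Heat map of the 36 members (rows, ordered by role) in the 8 libraries (columns), as log2 of value + 1 minus the mean of the gene over the 8 libraries. The 2 untreated GSK3β libraries are the highest of the 8 for Gins2, Pola1, Rrm1 and Rrm2.

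Origin recognition and licensing is the role of 10 members, none of which passed a test of the inhibitor in either line. Orc1, the large ATPase of the origin recognition complex (chromosome 4, 108579423 to 108614833, mm10), was 90.1 and 91.0 in untreated and 86.4 and 90.9 in inhibitor-treated GSK3α cells, and 75.8 and 80.3 and then 77.2 and 76.7 in the GSK3β line. All 4 GSK3β libraries lay below all 4 of the GSK3α line, and the untreated lines differed by -0.21 ± 0.04 (SE, limma adjusted p = 0.000204). Orc2, a core subunit of the same complex, differed between untreated lines by 0.05 (limma adjusted p = 0.195), from 167 and 166 to 174 and 170.3.

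The loading factors Cdc6 and Cdt1 were both higher in the untreated GSK3β line. Cdc6, an ATPase that joins the origin complex, was 66.2 and 67.2 in the GSK3α line and 76.7 and 73.8 in the GSK3β line (log2 0.17, limma adjusted p = 0.000975). Cdt1, which brings the helicase to the origin and is destroyed in S phase, was 137 and 144 against 154 and 162 (log2 0.17, limma adjusted p = 0.000809). With inhibitor the GSK3β line stayed at 74.8 and 75.7 for Cdc6 and at 163 and 159 for Cdt1, within or beside the untreated range, and the intervals of the log2 response were -0.08 to 0.08 and -0.05 to 0.10.

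The MCM2-7 ring has 6 subunits, and only their RNA was measured here. Per kb of transcript in the untreated GSK3α line, Mcm7 was highest (176) and Mcm4 lowest (92.5), a ratio of 1.90. Per kb of coding sequence Mcm5 came first (252) and Mcm4 was again lowest (128), so the order at the top depends on which length divides the value. Mcm2 was 489 and 499 in the GSK3α line and 512 and 532 in the GSK3β line, and Mcm6 was 429 and 437 against 461 and 469. These were the 2 subunits that passed between untreated lines, Mcm6 by 0.10 (limma adjusted p = 0.00532) and Mcm2 by 0.08 (limma adjusted p = 0.0321). The call of Mcm2 ended without any 1 of 4 libraries: untreated GSK3α replicate 1 (limma adjusted p = 0.154), untreated GSK3β replicate 2 (0.224) and either inhibitor library of the GSK3β line (0.051 and 0.0511). Mcm3, Mcm4 and Mcm7 differed by 0.04, 0.07 and 0.07 and did not pass.

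Mcm5, the subunit at the gate of the ring, was at 550 and 562 untreated and 566 and 555 with inhibitor in the GSK3α line. It was at 523 and 542 and then 499 and 511 in the GSK3β line, so that the treated libraries lay below the untreated ones, but the response of -0.08 ± 0.03 missed the threshold (limma adjusted p = 0.0939). Across the 6 subunits the GSK3β response ranged from -0.08 for Mcm5 to 0.03 for Mcm3.

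Helicase activation brings Mcm10, Cdc45 and the 4 GINS subunits to the ring. Gins2 (chromosome 8, 120578633 to 120589304) was at 63.4 and 65.8 in untreated GSK3α cells and at 69.1 and 66.9 with inhibitor. It started higher in the GSK3β line, at 95.3 and 95.6, and fell there to 86.2 and 88.8. The untreated lines did not overlap and differed by 0.56 ± 0.04, or 47.1% (SE, limma adjusted p = 7.02e-10), and the fall in the GSK3β line was -0.12 ± 0.04 (limma adjusted p = 0.0312). The response was 0.07 in the GSK3α line (limma adjusted p = 0.457), and the responses differed (limma adjusted p = 0.0306). The fall ended as a call without any 1 of the 4 GSK3β libraries (limma adjusted p from 0.0677 without inhibitor replicate 2 to 0.268 without inhibitor replicate 1). The difference between responses ended as a call without 6 of the 8 libraries, all but untreated GSK3α replicate 2 and untreated GSK3β replicate 2 (limma adjusted p 0.0533 to 0.173).

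Gins2 shares 2758 exon bases with Gse1 on the opposite strand (GENCODE M21), and the labels give no strand setting, so reads of the shared stretch cannot be told apart. Gse1 itself had means of 47.6 and 43.4 in the GSK3α line and 53.3 and 45.1 in the GSK3β line (untreated, then inhibitor), with log2 differences of -0.24 in the GSK3β response and 0.16 between untreated lines, in the same directions as Gins2, and with -0.13 in the GSK3α response, where Gins2 had 0.07. Per kb of coding sequence Gins2 was the highest GINS subunit in untreated GSK3α cells (116), whereas per kb of transcript, which counts that stretch, Gins4 was (45.6). Gins3 was lowest by either length.

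The other GINS subunits did not pass a test of the inhibitor. Gins4 was 59.3 and 63.8 in the untreated GSK3α line and 74.7 and 73.0 in the GSK3β line (log2 0.26, limma adjusted p = 0.000131), and Gins1 was 32.8 and 31.2 against 37.1 and 36.1 (log2 0.19, limma adjusted p = 0.00451). Gins3 stayed between 23.8 and 27.5 in all 8 libraries. Mcm10, which helps the helicase to start, was lower in the untreated GSK3β line, at 177 in both libraries against 195 and 198 (log2 -0.15, limma adjusted p = 0.000679). Cdc45 was 69.7 and 65.6 untreated and 61.8 and 63.0 with inhibitor in the GSK3β line, a response of -0.11 that did not pass (limma adjusted p = 0.0708) but did without untreated replicate 2 of that line (0.0256).

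Polymerase α-primase, which lays the RNA-DNA primers, has 4 subunits, and in the GSK3β line 2 of them fell. Pola1, the catalytic subunit (chromosome X, 93304767 to 93632155), was at 125 and 124 untreated and 126 and 128 with inhibitor in the GSK3α line. The values in the GSK3β line were 172 and 174 and then 158 and 163. Every GSK3β library lay above every GSK3α library, and the untreated lines differed by 0.47 ± 0.03, or 38.8% (SE, limma adjusted p = 7.13e-10). The fall with inhibitor was -0.11 ± 0.03 (limma adjusted p = 0.0316) and the difference between responses, -0.13, did not pass (limma adjusted p = 0.0854). Without any 1 of the 4 GSK3β libraries the fall was no longer a call (limma adjusted p from 0.0583 to 0.303, the highest without inhibitor replicate 1).

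Prim1, the primase itself, was at 84.1 and 82.2 in the untreated GSK3β line, close to the 86.8 and 82.3 of the GSK3α line, and at 74.9 and 77.7 with inhibitor. This fall of 0.12 on the log2 scale (limma adjusted p = 0.0384) did not pass with either other scaling (0.0528 and 0.0517) or without any of 5 libraries: both inhibitor libraries of the GSK3α line, untreated GSK3β replicate 1 and both inhibitor libraries of the GSK3β line (0.0532 to 0.314). Prim2, the partner of Prim1, was at 55.04 and 51.6 and then 45.2 and 51.2 in the GSK3β line (log2 -0.14, limma adjusted p = 0.07), and it passed without untreated replicate 2 (0.0362) or without inhibitor replicate 2 (0.0122).

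Pola2, the regulatory subunit, had higher values with inhibitor in one line and lower values in the other, without passing in either. It was at 64.1 and 67.3 untreated and 73.2 and 69.4 with inhibitor in the GSK3α line (log2 0.12, limma adjusted p = 0.295), and at 82.6 and 78.7 and then 72.4 and 78.0 in the GSK3β line (log2 -0.10, limma adjusted p = 0.145). The difference of -0.22 ± 0.06 between these passed narrowly (limma adjusted p = 0.047). It did not pass with no filter, either other scaling or limma-voom (0.0571 to 0.0601) or limma without a trend (0.231), nor without any 1 of 5 libraries: untreated GSK3α replicate 1, both GSK3α inhibitor replicates, untreated GSK3β replicate 1 and GSK3β inhibitor replicate 1 (0.0648 to 0.271). The catalytic subunits of the other replicative polymerases passed no test of the inhibitor. Pold1, of the lagging strand polymerase, was 119 in both untreated GSK3α libraries and 128 and 135 in the GSK3β line (log2 0.14, limma adjusted p = 0.00421; 0.0552 without untreated GSK3β replicate 2). Pole, of the leading strand polymerase, lay between 109 and 117 in all libraries and passed no test.

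Pcna, the ring that tethers polymerases to DNA (chromosome 2, 132249162 to 132253314), was at 350 and 359 untreated and 357 and 351 with inhibitor in the GSK3α line. In the GSK3β line it was at 340 and 317 and then 297 and 305. The fall of 0.12 on the log2 scale passed (SE 0.03, limma adjusted p = 0.0157), as did the lower level in the untreated GSK3β line, -0.11 (limma adjusted p = 0.0103). Unlike the other called members of the GSK3β response, Pcna and Prim1 were not higher in that line before treatment. The fall was not called without untreated GSK3β replicate 1 (0.21) or GSK3β inhibitor replicate 1 (0.19), and the difference between untreated lines was not called without untreated GSK3α replicate 2 (0.073) or untreated GSK3β replicate 2 (0.156). The pseudogene Pcna-ps2 also has values (means of 86.0, 89.4, 84.6 and 76.9 over the 4 groups), so reads of Pcna could be split between near-identical copies.

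The clamp loader opens that ring. Rfc3 was at 37.5 and 42.1 in untreated GSK3α cells, 42.6 and 42.1 with inhibitor, 51.3 and 49.2 in untreated GSK3β cells and 45.9 and 45.4 with inhibitor. It was higher in the untreated GSK3β line by 0.33 ± 0.05 (SE, limma adjusted p = 2.92e-05), and its response of -0.14 there did not pass (limma adjusted p = 0.0793) but did without either untreated GSK3α library (0.0394 and 0.0404). Rfc5 was higher by 0.10 (limma adjusted p = 0.0169), a call that ended without untreated GSK3α replicate 2 (0.0859) or untreated GSK3β replicate 1 (0.131). Rfc1, the large subunit, Rfc2 and Rfc4 passed no test, with GSK3β responses of -0.01, -0.09 and -0.11. Per kb Rfc5 was the highest subunit by transcript (60.7) and by coding length (167) in untreated GSK3α cells, while the lowest was Rfc2 by the first and Rfc3 by the second.

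Rpa1 and Rpa2, which coat single-stranded DNA, were both lower in the untreated GSK3β line. Rpa1 was 348 and 350 against 318 and 331 (log2 -0.11, limma adjusted p = 0.00613; 0.0686 without untreated GSK3β replicate 1) and Rpa2 was 133 and 135 against 123 and 115 (log2 -0.17, limma adjusted p = 0.000701). With inhibitor Rpa2 was at 111 and 110 in that line, a response of -0.10 that missed the threshold (limma adjusted p = 0.0588) and passed without untreated GSK3β replicate 2 (0.00744). Rpa1 stayed at 327 and 331. Fen1, the flap nuclease, and Lig1, the ligase that seals Okazaki fragments, passed no test, with untreated differences of -0.05 and 0.07.

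Nucleotide supply held the falls with the smallest adjusted p. Rrm1, the large subunit of ribonucleotide reductase (chromosome 7, 102441695 to 102469771), stood at 182 and 183 untreated and 184 and 185 with inhibitor in the GSK3α line, 4 values within a narrow range. In the GSK3β line it stood at 220 and 219 and dropped to 190 and 199, above the GSK3α libraries in both states. The untreated lines differed by 0.26 ± 0.03 (SE, limma adjusted p = 1.35e-06). The GSK3β response was -0.17 ± 0.03, or -11.3% (limma adjusted p = 0.000743), and the GSK3α response 0.01 had an interval of -0.05 to 0.08. The difference between responses was -0.19 ± 0.04 (limma adjusted p = 0.0149), which did not pass without either GSK3α inhibitor library (0.0534 and 0.0675) or GSK3β inhibitor replicate 1 (0.132). Among the 6 members that fell in the GSK3β line, Rrm1 is the one whose fall passed whichever library was left out.

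Rrm2, the small subunit that limits the enzyme in S phase (chromosome 12, 24708241 to 24714146), was at 375 and 395 untreated and 380 and 386 with inhibitor in the GSK3α line. In the GSK3β line it was at 431 and 432 and fell to 397 and 380, which overlaps the GSK3α libraries. The fall was -0.15 ± 0.03, or -9.96% (SE, limma adjusted p = 0.00272), and was not called without GSK3β inhibitor replicate 2 (0.0647). The difference between responses, -0.15, did not pass (limma adjusted p = 0.0613) but did without untreated GSK3α replicate 2 (0.0297). Per kb of transcript Rrm2 was 3.84 times Rrm1 in the untreated GSK3α line and 3.58 times in the GSK3β line. Tyms, which makes thymidylate, lay between 94.4 and 104 in all libraries and passed no test.

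E2f1 (chromosome 2, 154559407 to 154569892) was the one member that rose with inhibitor. In the GSK3α line it went from 35.1 and 31.4 to 40.3 and 39.5, while in the GSK3β line it stayed at 37.1 in both untreated libraries and at 37.1 and 36.6 with inhibitor. The 4 GSK3β values lay between the untreated and treated GSK3α values. The rise was 0.26 ± 0.05, or 19.5% (SE, limma adjusted p = 0.0208), and it ended as a call without untreated GSK3α replicate 2 (0.199), inhibitor replicate 1 (0.303) or inhibitor replicate 2 (0.144). The difference between responses (-0.27 ± 0.07, limma adjusted p = 0.0353) did not pass with either other scaling (0.0502 and 0.0507) or without any 1 of 6 libraries, all but untreated GSK3α replicate 1 and untreated GSK3β replicate 2 (0.0704 to 0.144). Untreated, E2f1 was higher in the GSK3β line by 0.16 (limma adjusted p = 0.0194), which did not hold without untreated GSK3α replicate 2 (0.287) or either untreated GSK3β library (0.0532 and 0.0568).

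**Figure D3:**
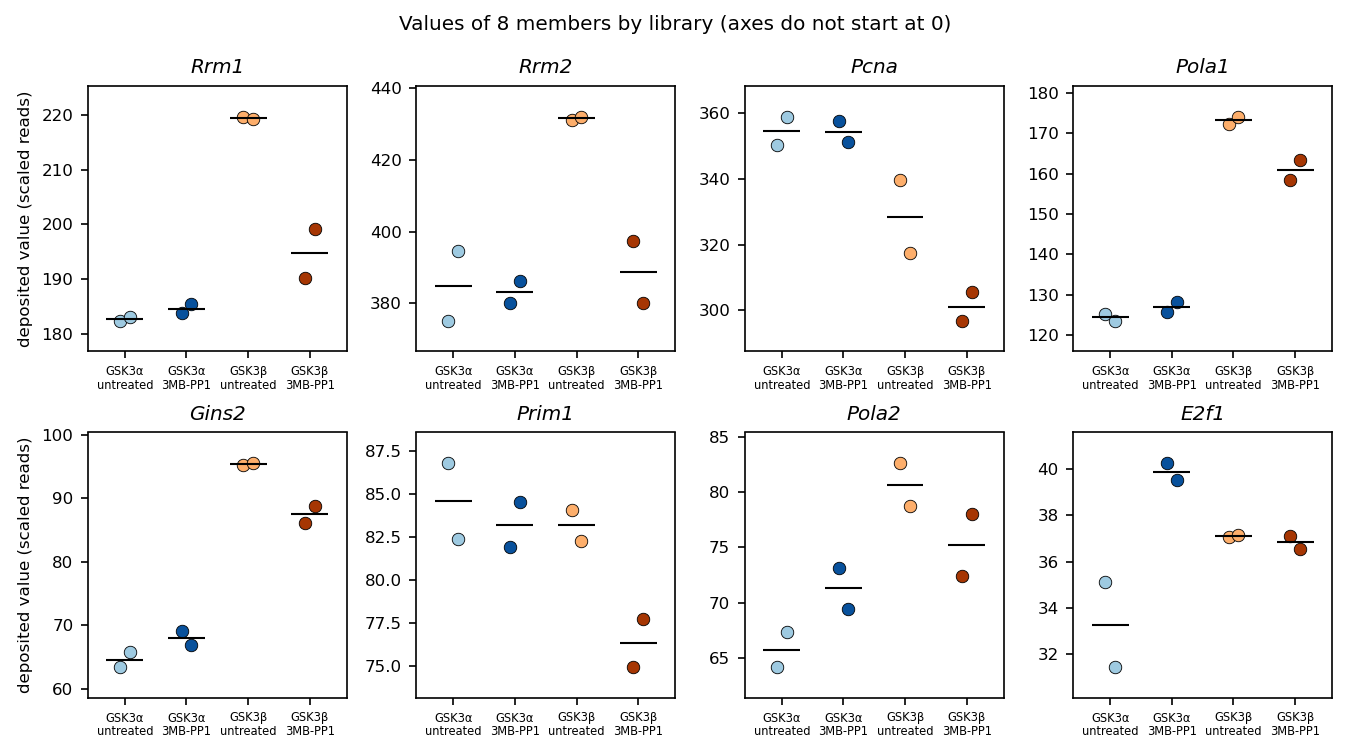
Values (y axis, deposited signal, not starting at 0 and with its own range for each gene) of the members that passed a test of the inhibitor or of the difference in response. Points are libraries and horizontal bars are group means, for the 4 groups. Rrm1, Rrm2, Pola1 and Gins2 are highest in the untreated GSK3β line, and E2f1 is highest in the treated GSK3α line.

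Other genes of the pathway were counted from 4 lists. Of 30 partners of the replication machinery 3 rose (10%) and 7 fell (23.3%) with inhibitor in the GSK3β line, where 7.49% and 7.44% of all tested genes did. Those that fell include Orc4 (log2 -0.21, limma adjusted p = 0.00413) and the small RPA subunit Rpa3 (-0.19, limma adjusted p = 0.00711). Ticrr, which with Topbp1 lets GINS join the helicase, was the largest exception. It was at 286 and 299 untreated and 259 and 270 with inhibitor in the GSK3α line, and it rose from 145 and 152 to 197 and 187 in the GSK3β line (log2 0.37, limma adjusted p = 7.55e-07). The untreated GSK3β line thus had less of it by 0.98 on the log2 scale, opposite to Gins2 and Pola1, and the responses differed by 0.52 (limma adjusted p = 2.88e-06). Of 13 genes of nucleotide supply and chromatin copying, 5 fell (38.5%) and 0 rose in the GSK3β line: the remodeller Hells went from 512 and 508 to 443 and 445 (log2 -0.20, limma adjusted p = 5.31e-05), with Slbp, which binds histone mRNA, at -0.14, and the thymidine kinase Tk1 at -0.15. No gene of these 2 lists passed in the GSK3α line, 0 of 30 and 0 of 13 by limma, where unadjusted p was under 0.05 for 2 higher and 2 lower partners and for 0 higher and 3 lower genes of nucleotide supply and chromatin copying. Over all tested genes 0.265% passed upwards and 0.616% downwards there, so 0 calls in lists of this size is near that share. Without adjustment 855 of the 13959 tested genes were higher there and 793 lower at p under 0.05.

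Of 27 E2F, RB and G1/S regulators, 2 rose (7.41%) and 12 fell (44.4%) in the GSK3β line, beside the same 7.49% and 7.44% of all tested genes, and the median was -0.12 beside -0.01. The share that rose is thus near that of all genes. Cdkn1a, the cyclin-dependent kinase inhibitor p21, rose from 41.6 and 36.4 to 76.5 and 72.2 (log2 0.92, limma adjusted p = 8.36e-10), after being lower than the 70.1 and 71.8 of the untreated GSK3α line. Myc, a driver of growth and of G1/S, fell from 37.4 and 37.2 to 20.1 in both libraries (-0.86, limma adjusted p = 4.79e-08), and Ccne1, the cyclin of the G1/S transition, fell by 0.22. In the GSK3α line 2 of the 27 fell (7.41%), Myc (-0.48, limma adjusted p = 0.00154) and the cyclin Ccnd2 (-0.25, limma adjusted p = 0.0297), and 0 rose. Over all tested genes 0.616% fell and 0.265% rose there. Of 8 genes of the S-phase checkpoint 1 rose (12.5%) and 2 fell (25%) in the GSK3β line. Over all tested genes these shares were 7.49% and 7.44%. The kinases Wee1 (-0.19) and Chek1 (-0.15) fell and the clamp subunit Rad9a (0.20) rose. In the GSK3α line 0 of the 8 passed by limma. By unadjusted p under 0.05 there were 1 higher and 0 lower, beside 855 and 793 of the 13959 tested genes. Between untreated lines the 4 lists had 10, 5, 12 and 3 genes higher and 6, 3, 5 and 3 lower in the GSK3β line, in the order given. In percent that is 33.3, 38.5, 44.4 and 37.5 higher, beside 22.3% of all tested genes, and 20%, 23.1%, 18.5% and 37.5% lower, beside 25.9%. Those with the smallest adjusted p were, beside Ticrr and Cdkn1a, Hells (-0.46), Chek1 (0.41), Ccnd3 (0.40), Orc6 (0.32), Rad9a (-0.32), Ccnd1 (0.30), Atr (0.26), Orc5 (0.24), Chaf1a (-0.20) and the histone chaperone Nasp (0.15).

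**Figure D4:**
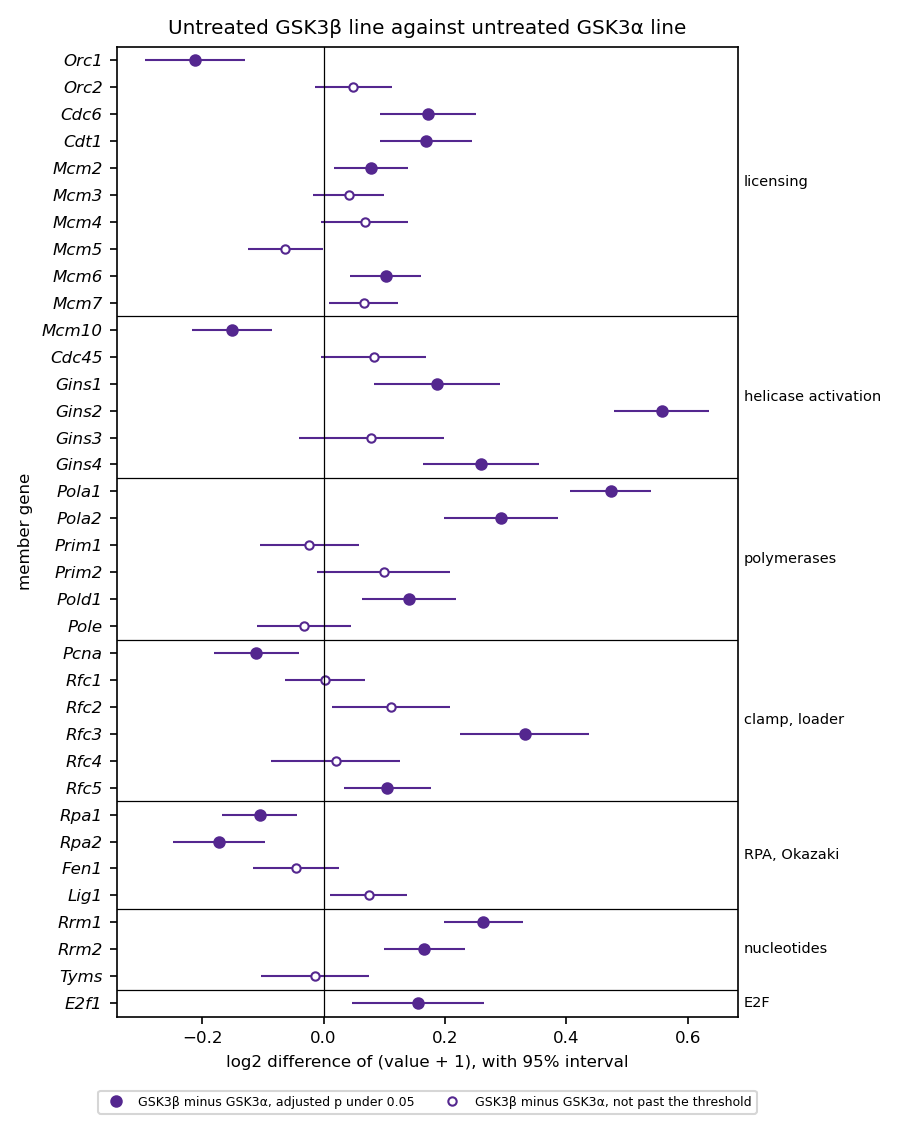
Log2 difference between the untreated GSK3β line and the untreated GSK3α line for each member (log2 of value + 1), with 95% confidence intervals, ordered by role. Gins2 at 0.56 and Pola1 at 0.47 stand highest and Orc1 at -0.21 lowest.

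Exons of 12 members overlap exons of another annotated gene, 11 of them on the opposite strand, and 24 overlap none. Besides Gins2 these include Orc1, Orc2, Mcm7, Cdc45, Pole, Rfc2, Rfc4, Rfc5, Rpa1, Fen1 and Lig1, so values of these genes can hold reads of the neighbour. Rrm1, Rrm2, Pola1, Pola2, Prim1 and E2f1, which carry most of the calls on the inhibitor, overlap no other exon.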

How the data were processed

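RNA of 8 libraries was sequenced, 2 in each of 4 groups. Per the submitters' processing notes the authors used TopHat2 and Partek on mm10, and versions, gene annotation, strand setting and filters are not given in the sources used here. The deposited table holds signal values per gene, which the authors scaled so that the third quartile is equal to within 0.0548% between libraries. Of 48321 listed genes 17488 have values. The smallest value of a library was read as the worth of 1 read, which gives the depths, but 63.5% to 67.6% of values up to 20 reads came out whole to within 0.1, so no count test was used. Genes with a mean of at least 1 were kept (13959), and log2(value + 1) was fitted with limma-trend (limma 3.58.1, R 4.3.3) with 4 group means and 4 residual degrees of freedom, two-sided, with Benjamini-Hochberg adjustment over all tested genes and a threshold of 0.05. The added 1 understates the change of low genes, and fold changes and percentages are on this scale. Errors after ± are standard errors of log2 differences, and n = 2 libraries per group throughout. The fit was run on simulated data first. That run required a minimum recovery only for changes larger than any member difference here, and recovery at the sizes of the members is not given. Tables and figures used Python 3.11.15, pandas 2.3.3, numpy 2.4.6 and matplotlib 3.10.9.

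All 36 members are named, and of each pathway list up to 3 genes with the smallest adjusted p in a comparison, besides the genes whose responses differ between lines. Ticrr, Cdkn1a and Myc are given in more detail, which was chosen after their values were seen. The members and lists were chosen with earlier results of these data known, so none of them is independent of the data. For 1 gene of the pathway lists the result is not reported here. Gene positions and lengths come from GENCODE M21 (GRCm38, the same assembly as mm10) and promoters from RefSeq (GRCm38.p6). Alternatives were other pseudocounts, filters, scalings and limma settings, a replicate block and leaving out each library in turn. All p-values are adjusted unless stated otherwise.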

Additional observations from a re-analysis of the deposited data

Results flagged for a closer look

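For 12 genes among the 36 members and the 4 lists (30, 13, 27 and 8 genes) the inhibitor response differed between the lines. This is by the test of the difference itself (limma, GSK3β response minus GSK3α response, log2 scale). Over all tested genes 3.62% passed upwards and 2.9% downwards. Of the members these were E2f1 (-0.27), Pola2 (-0.22), Gins2 (-0.20) and Rrm1 (-0.19). Of the partners, Ticrr differed by 0.52, the highest among them, and Pole2, the second subunit of polymerase ε, by -0.32. With 1 of 30 in each direction (3.33%) the partners are near the share of all tested genes. In nucleotide supply the difference was -0.23 for Tk1, the thymidine kinase of S phase. Among the regulators it was 1.14 for Cdkn1a, -0.38 for Myc, -0.31 for the repressor E2f8 and -0.27 for the E2F partner Tfdp2. The checkpoint kinase Wee1 differed by -0.19. In 10 of these 12 the response of the GSK3β line was the lower one, Ticrr and Cdkn1a being the other 2. Over all tested genes that passed it was the lower one in 405 and the higher one in 506. Groups of 2 libraries are too small to look for single outlying libraries.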

How the results depend on the processing

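In no comparison did the called value of a member change its sign under any alternative. The 96 changes of sign among 2700 values were in comparisons where the member had no call in either setting. Such a member can have a call in another comparison. What moved was the number of calls. Without a trend limma called 3 genes in the GSK3α line (0 higher, 3 lower), 980 in the GSK3β line (499 and 481), and 133 for the difference between lines (85 and 48), against 123, 2084 and 911 with it; of members it then called 0 in the GSK3α line, 0 in the GSK3β line and 0 for the difference, and between untreated lines 10 higher and 3 lower. With median of ratios or trimmed mean scaling 2 members passed for the difference between lines. Replicate numbers pair libraries only by number: deviations of same-numbered libraries correlated between -0.0447 and 0.0271. A replicate block within line left 3 members lower in the GSK3β line and 2 for the difference. Between untreated lines that fit compared the lines at the level of replicate 1 and not by group means. Its log2 estimates therefore moved as well, to 0.11 from 0.07 for Lig1 and to 0.11 from 0.16 for E2f1. It gave 10 members higher and 4 lower. Mcm2, Mcm6, Gins1, Pold1, Pcna, Rfc5 and E2f1 no longer passed (limma adjusted p 0.0509 to 0.171) and Lig1 did (0.0444). These changed calls between untreated lines are thus not a measure of blocking alone. The block shared by all groups left 6, 3, 15 and 5, and the difference for Pola2 passed with neither (0.0743 and 0.0609). Leaving out 1 library at a time gave 16 to 186 genes in the GSK3α line (3 to 62 higher, 13 to 124 lower), 864 to 2277 in the GSK3β line (443 to 1153, 421 to 1126), 353 to 1339 for the difference (222 to 719, 131 to 620) and 5669 to 6554 between untreated lines (2580 to 3032, 2944 to 3522). For members the ranges were 0 to 1 higher in the GSK3α line, 2 to 7 lower in the GSK3β line, 0 to 8 lower for the difference, and 13 to 16 higher and 4 to 5 lower between untreated lines. Of the calls 0 of 1, 1 of 6, 0 of 4 and 14 of 20 held whichever library was left out. The cause of these moves was not tested. A fit of only the groups compared gives no value for the difference between lines. Every difference rests on 2 libraries a group. The 95% intervals are not adjusted for the number of genes, so a member whose interval leaves out 0 can miss the threshold. Cdc45 in the GSK3β response is such a case (-0.20 to -0.03, limma adjusted p = 0.0708). Changes too small to pass these tests are not excluded.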
